A study of Mus musculus with 12 samples.

Results

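Fatty acid desaturases and elongases are the enzymes that turn the saturated product of fatty acid synthase into the longer and unsaturated chains of membranes and stored fat. The genes described here are Scd1, Scd2, Fads1, Fads2, Elovl1, Elovl2, Elovl3, Elovl5 and Elovl6. They were found by symbol among the annotated probe sets, 1 probe set for each gene, so that all 9 were measured, out of 23185 named genes in all.

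In the liver, newly made palmitate is lengthened to stearate by Elovl6 and given a double bond by the stearoyl-CoA desaturases, Scd1 and Scd2, which yields oleate and palmitoleate. Fads1 and Fads2 desaturate the essential dietary fatty acids, Elovl5 and Elovl2 lengthen those same polyunsaturated chains, and Elovl1 and Elovl3 make very long saturated and monounsaturated chains. Elongases and desaturases sit in the endoplasmic reticulum, and the transcription factors Srebp, Lxr and Chrebp are known inducers of Scd1 and Elovl6 in liver.

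The samples were livers of newborn mice at an age of 5 days, in 4 groups of 3 mice, 1 array a mouse. LKB1 KO mice (Cre positive) lacked the kinase LKB1, encoded by Stk11, and were set against LKB1 WT mice (Cre negative). RbpJk KO mice (Cre positive) lacked RbpJk, encoded by Rbpj, the DNA-binding partner of the Notch receptors, and were set against RbpJk WT mice (Cre negative). The series is titled as deletion in liver; which promoter drove Cre in these newborn mice, and which alleles the Cre negative mice carried, is not stated in the labels or methods for this age. All mice are labelled male. Expression was read on Affymetrix whole-transcript arrays from total RNA of whole liver, and every value below is the deposited log2 expression level or a difference of such levels. Arrays are numbered in the order of their entries, which pairs nothing across groups. Nothing in the labels ties arrays to litters, so that p-values measure the spread between these arrays, and 3 arrays a group limit the precision.

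The targeted gene averaged lower in its knockout: Stk11 averaged 6.75 ± 0.33 in LKB1 KO livers and 7.55 ± 0.03 in LKB1 WT livers (adjusted p = 0.0224, limma), and Rbpj averaged 4.34 ± 0.36 in RbpJk KO livers and 5.07 ± 0.24 in RbpJk WT livers (SD, n = 3 each), a difference that did not pass the threshold (adjusted p = 0.0724, limma). Against the label male, Xist was high, with the Y-linked genes low, on 1 of 3 LKB1 KO, 3 of 3 LKB1 WT, 0 of 3 RbpJk KO and 2 of 3 RbpJk WT arrays. Array 1 of RbpJk WT stood apart in its pancreatic acinar markers, with a mean over 6 genes of 7.74, against 3.83 to 4.54 on the other arrays. Of 7 hepatocyte markers, 7 had a mean below LKB1 WT in LKB1 KO livers (median difference -0.14), none of them called, and 5, namely Ttr, Apoa1, Apob, Ahsg and Fgb, lay wholly below, against 8.6% of all genes. Fgb, for one, averaged 11.74 in LKB1 KO livers and 11.93 in LKB1 WT livers (-0.19, adjusted p = 0.307, limma), and Alb 12.42 and 12.45 (-0.03). For RbpJk 3 of the 7 had a positive and 4 a negative difference (median -0.01). The mean of 8 endothelial markers ran from 7.75 to 7.94 in LKB1 KO livers, against 8.10 to 8.24 in LKB1 WT livers. That of 8 Kupffer cell markers ran from 7.76 to 7.90 in LKB1 KO livers, against 8.11 to 8.24 in LKB1 WT livers. None of either list was called, and 6 of 8 endothelial and 5 of 8 Kupffer cell markers lay wholly below, against 8.6% of all genes. Of 8 stellate cell markers 4 had a positive and 4 a negative difference. Reln was called as lower (8.06 in LKB1 KO and 8.61 in LKB1 WT livers). Of 6 cholangiocyte markers 4 had a positive and 2 a negative difference, and Bicc1 was called as higher (7.19 and 6.46). Over all genes 0.962% were called in that comparison. In the RbpJk comparison 5 of 5 erythroid markers had a negative difference (median -0.40), and their mean ran from 7.02 to 7.61 in RbpJk KO livers, against 7.35 to 7.90 in RbpJk WT livers. Of them Klf1, an erythroid transcription factor, was called (-0.66, adjusted p = 0.0274, limma). Of the Kupffer cell markers, Cd5l rose (0.70, adjusted p = 0.0237, limma) and Adgre1 fell (-0.44, adjusted p = 0.0496, limma) in RbpJk KO livers. Fits with Xist class as a covariate, on arrays of 1 Xist class and without RbpJk WT array 1 are given below. The part of the other cell type markers in the results below was not tested. In whole liver, fewer cells of a type and less RNA per cell cannot be told apart.

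Among the 9 genes, Scd1, Scd2 and Elovl6 were higher in both knockouts, and no desaturase or elongase of the 9 fell. In LKB1 KO livers Scd1 was 4.29-fold, Elovl6 2.33-fold and Scd2 2.11-fold the LKB1 WT level. In RbpJk KO livers Scd1 was 5.61-fold, Scd2 3.61-fold and Elovl6 2.02-fold the RbpJk WT level. The other 6 genes, Fads1, Fads2, Elovl1, Elovl2, Elovl3 and Elovl5, did not pass the test in either comparison, and their differences lay between -0.11 and 0.45 on the log2 scale. Calls here are limma's moderated test with an adjusted p under 0.05 over all 23185 genes.

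By that rule 3 of the 9 genes were called in the LKB1 comparison, against 0.962% of all genes called in either direction and 0.418% called as higher in LKB1 KO. In the RbpJk comparison 3 of 9 were called, the same 3, against 1.68% of all genes in either direction and 1.12% called as higher in RbpJk KO. The 3 LKB1 KO arrays all lay above the 3 LKB1 WT arrays for 6 of 9 genes (7.77% of all genes), and the 3 RbpJk KO arrays all lay above the 3 RbpJk WT arrays for 3 of 9 (8.25% of all genes). The median difference of the 9 genes was 0.41 for LKB1 and 0.27 for RbpJk, beside -0.01 and -0.03 over all genes. The 2 comparisons share no array, only the estimate of spread. In both of them every knockout mouse was Cre positive and every control mouse Cre negative, so that deletion and Cre cannot be told apart.

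**Figure D1:**
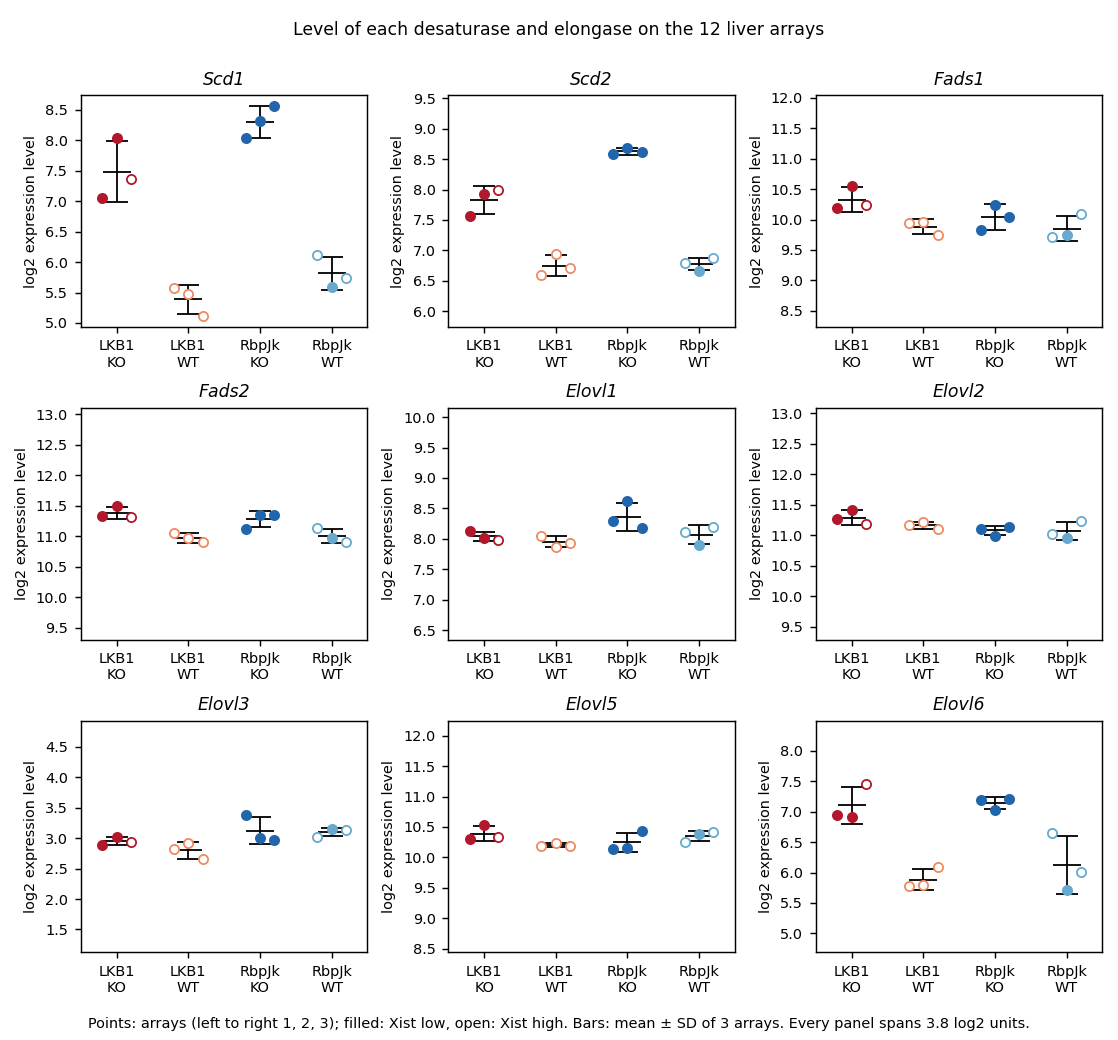
Log2 expression level (vertical axis) of the 9 genes on each array, by group (horizontal axis), with 1 point an array (filled where Xist was low, open where it was high) and bars for the mean ± SD of 3 arrays; every panel spans the same width on the log2 scale. For Scd1, Scd2 and Elovl6 the knockout points of each comparison lie wholly above their control points, and for Elovl1, Elovl2 and Elovl3 they overlap in both.

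Scd1 encodes the main stearoyl-CoA desaturase of mouse liver. Its level was 7.06, 8.03 and 7.37 on the LKB1 KO arrays, against 5.58, 5.47 and 5.11 on the LKB1 WT arrays. It was 8.03, 8.31 and 8.56 on the RbpJk KO arrays, against 6.11, 5.59 and 5.74 on the RbpJk WT arrays. In each comparison every knockout array was above every control array, and the lowest knockout array lay above the highest control array by 1.48 for LKB1 and by 1.91 for RbpJk, more than the range within any of the 4 groups. The difference was 2.10 ± 0.23 for LKB1 (SE, 95% confidence interval 1.61 to 2.59, adjusted p = 0.000307, limma) and 2.49 ± 0.23 for RbpJk (2.0 to 2.98, adjusted p = 9.49e-05, limma). Of all 23185 genes, 9 had a larger rise than Scd1 in LKB1 KO livers and 5 in RbpJk KO livers.

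Scd1 varied more within each knockout group than any other of the 9 genes. The LKB1 KO arrays spanned 0.97 and the RbpJk KO arrays 0.53. In LKB1 KO livers array 2 was the highest, as it was for Fads1, Fads2, Elovl2, Elovl3 and Elovl5, that is for 6 of the 9 genes. By mean level the groups ran RbpJk KO, LKB1 KO, RbpJk WT and LKB1 WT, from high to low. The 2 knockout groups met at 8.03 and so overlapped, whereas LKB1 KO and RbpJk WT, and RbpJk WT and LKB1 WT, did not.

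Scd2 encodes the isoform known for lipid synthesis in newborn mice and in the brain. It was measured at 7.56, 7.93 and 7.99 on the LKB1 KO arrays and at 6.60, 6.94 and 6.71 on the LKB1 WT arrays. On the RbpJk KO arrays it was 8.58, 8.69 and 8.61, and on the RbpJk WT arrays 6.80, 6.67 and 6.87. Neither comparison showed an overlap, and the 3 RbpJk KO arrays lay within 0.11 of each other. The difference was 1.08 ± 0.13 for LKB1 (0.80 to 1.35, adjusted p = 0.000699, limma) and 1.85 ± 0.13 for RbpJk (1.58 to 2.12, adjusted p = 2.05e-05, limma).

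For Scd2 the 4 groups ran RbpJk KO, LKB1 KO, RbpJk WT and LKB1 WT. All 3 RbpJk KO arrays were above all 3 LKB1 KO arrays, and the 2 control groups overlapped (means of 6.75 in LKB1 WT and 6.78 in RbpJk WT). The LKB1 difference was smaller than the RbpJk difference by 0.77 ± 0.18 on the log2 scale (95% confidence interval of LKB1 minus RbpJk, -1.16 to -0.39). This had an unadjusted p of 0.00075 and did not pass after adjustment (adjusted p = 0.124, limma, and 0.0704 to 0.315 over 20 alternatives).

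Scd1 and Scd2 lie side by side with Scd3 and Scd4 on chromosome 19, in the order Scd3, Scd2, Scd4 and Scd1, with no other protein-coding gene starting between them. Scd4, between the 2 called genes, was measured at 2.71, 2.42 and 2.76 in LKB1 KO livers, against 2.85, 2.89 and 2.59 in LKB1 WT livers, and it was between 2.73 and 2.84 in RbpJk KO livers, against 2.74 to 3.19 in RbpJk WT livers. Scd3 lay between 2.40 and 2.79 on all 12 arrays. Both were below the array medians of 4.84 to 5.01 and neither passed the test (adjusted p of 0.679 or more, limma). The Scd genes are near copies, and probes of one can catch another's transcripts, so that the values of Scd1 and Scd2 are uncertain to that extent.

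Elovl6, which lengthens palmitate, was 6.95, 6.91 and 7.46 on the LKB1 KO arrays and 5.78, 5.79 and 6.08 on the LKB1 WT arrays. It was 7.19, 7.03 and 7.20 on the RbpJk KO arrays and 6.65, 5.72 and 6.01 on the RbpJk WT arrays. Again no groups of a comparison overlapped, but array 1 of RbpJk WT, the one with pancreatic markers, stood close to the knockouts, 0.38 below the lowest of them. The difference was 1.22 ± 0.21 for LKB1 (0.78 to 1.67, adjusted p = 0.00939, limma) and 1.01 ± 0.21 for RbpJk (0.57 to 1.46, adjusted p = 0.0224, limma). The difference between these was 0.21, with a 95% confidence interval of -0.42 to 0.84. By mean level RbpJk KO and LKB1 KO overlapped at the top, as did RbpJk WT and LKB1 WT at the bottom.

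The Elovl6 calls rest on few arrays. The LKB1 call was lost without LKB1 KO array 3 (1.05, adjusted p = 0.0651), LKB1 WT array 1 (1.17, 0.0512) or LKB1 WT array 2 (1.17, 0.0548). The RbpJk call was lost without RbpJk KO array 1 (0.99, 0.0695), RbpJk KO array 3 (0.98, 0.0884), RbpJk WT array 2 (0.81, 0.0866) or RbpJk WT array 3 (0.96, 0.0681), and also when the 6 RbpJk arrays were fitted alone (1.01, 0.0908). Without the pancreatic RbpJk WT array 1 it was 1.27 (adjusted p = 0.00355). With Xist class as a covariate the Elovl6 difference was 1.60 for LKB1 and 1.39 for RbpJk (adjusted p = 0.00174 and 0.00363, limma). Scd1 and Scd2 were called with any 1 array left out and with the covariate. They were also called on arrays of 1 Xist class alone (Scd1 1.99 for LKB1 and 2.72 for RbpJk, Scd2 1.24 and 1.96, adjusted p = 0.0125, 0.0063, 0.0168 and 0.0063, limma), where 1 LKB1 KO array stood against 3 LKB1 WT arrays and 3 RbpJk KO arrays against 1 RbpJk WT array, the lone array being taken to vary like the others.

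**Figure D2:**
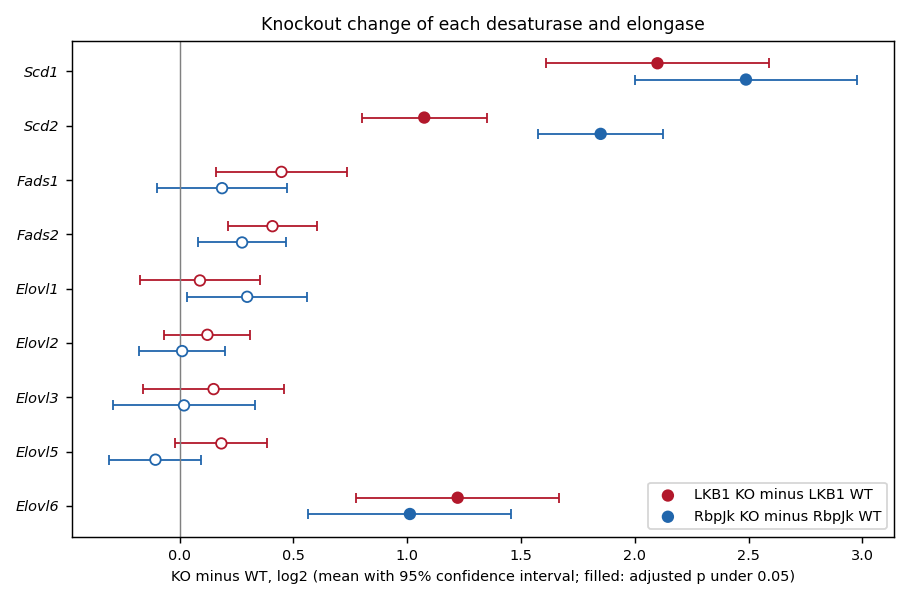
Difference between knockout and control (horizontal axis, log2) for each of the 9 genes (vertical axis), with LKB1 KO minus LKB1 WT in red above RbpJk KO minus RbpJk WT in blue; bars are 95% confidence intervals and filled points passed an adjusted p under 0.05. Scd1, Scd2 and Elovl6 are filled in both comparisons, and the intervals of the other 6 genes end at 0.73 or lower.

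Fads1 and Fads2 encode the desaturases of polyunsaturated fatty acid synthesis, and they lie next to Fads3 on chromosome 19 in the order Fads3, Fads2 and Fads1, with no other protein-coding gene starting between them. Fads2 was 11.33, 11.50 and 11.31 on the LKB1 KO arrays and 11.06, 10.96 and 10.90 on the LKB1 WT arrays, without overlap, a difference of 0.41 ± 0.09 that missed the threshold (adjusted p = 0.0514, limma). It passed in 8 of 23 alternatives (adjusted p from 0.00795 to 0.516 over all of them), among them the fits without RbpJk KO array 1 (0.0344), RbpJk WT array 1 (0.0468) and RbpJk WT array 3 (0.0475). Fads1 was 10.19, 10.56 and 10.24 on the LKB1 KO arrays and 9.95, 9.95 and 9.74 on the LKB1 WT arrays, also without overlap (0.45 ± 0.13, adjusted p = 0.198, limma).

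In the RbpJk comparison both of these genes overlapped between the groups. Fads2 was 11.13, 11.36 and 11.35 on the RbpJk KO arrays and 11.14, 10.97 and 10.91 on the RbpJk WT arrays (0.27 ± 0.09, adjusted p = 0.164, limma). Fads1 was 9.83, 10.24 and 10.04 on the RbpJk KO arrays and 9.72, 9.75 and 10.09 on the RbpJk WT arrays (0.19 ± 0.13, adjusted p = 0.561, limma). The upper confidence limits were 0.60 for Fads2 and 0.73 for Fads1 in the LKB1 comparison and 0.47 for both in the RbpJk comparison, so that larger rises lie outside these intervals. Ordered by mean level, neighbouring groups overlapped for both genes throughout.

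Elovl5 and Elovl2 lengthen polyunsaturated chains. Elovl5 was 10.31, 10.53 and 10.33 on the LKB1 KO arrays and 10.19, 10.24 and 10.18 on the LKB1 WT arrays, a gap of 0.06 between the groups (0.18 ± 0.09, adjusted p = 0.705, limma). In the RbpJk comparison it was 10.15, 10.16 and 10.43 in RbpJk KO livers and 10.25, 10.39 and 10.41 in RbpJk WT livers, with the sign turned and the groups overlapping (-0.11 ± 0.09, adjusted p = 0.653, limma). The difference between the comparisons was 0.29 for Elovl5 (0.0041 to 0.57, unadjusted p = 0.0472, adjusted p = 0.544, limma). Elovl2 lay between 10.95 and 11.42 on all 12 arrays, with differences of 0.12 for LKB1 and 0.01 for RbpJk (adjusted p = 0.883 and 0.970, limma), and the second became -0.04 after quantile normalization.

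Elovl1 and Elovl3 make very long chains, Elovl1 in most tissues and Elovl3 above all in skin, brown fat and adult male liver. Elovl1 was 8.12, 8.02 and 7.99 in LKB1 KO livers and 8.05, 7.87 and 7.94 in LKB1 WT livers (0.09 ± 0.12, adjusted p = 0.996, limma). In RbpJk KO livers it was 8.29, 8.62 and 8.18, and in RbpJk WT livers 8.11, 7.90 and 8.20, so that the groups met at their edges (0.30 ± 0.12, adjusted p = 0.277, limma). Elovl3 was dim, between 2.66 and 3.39 on every array and below the array medians. Its differences were 0.15 ± 0.15 for LKB1 and 0.02 ± 0.15 for RbpJk (adjusted p = 0.952 and 0.969, limma), and at this level a change could be missed. By mean level, neighbouring groups overlapped for Elovl1, Elovl2 and Elovl5, and for Elovl3 LKB1 KO (up to 3.02) lay just below RbpJk WT (from 3.03).

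None of the 9 genes passed the test of the difference between the LKB1 and RbpJk effects, against 0.181% of all genes called, and 2 of the 9, Scd2 and Elovl5, had an unadjusted p under 0.05, as had 9.13% of all genes. For Scd1 that difference was -0.39 with a 95% confidence interval of -1.08 to 0.30 (adjusted p = 0.791, limma), which leaves room for a smaller or a somewhat larger LKB1 effect. Between the control groups, LKB1 WT minus RbpJk WT, none of the 9 passed either, against 0.699% of all genes called, and none had an unadjusted p under 0.05, which 12.5% of all genes had. All LKB1 WT arrays lay below all RbpJk WT arrays for Scd1 (-0.43 ± 0.23, adjusted p = 0.464, limma), Elovl3 (-0.31) and Elovl5 (-0.15), that is for 3 of 9 genes, against 9.64% of all genes. All 5 erythroid markers lay wholly above in LKB1 WT (median difference 0.63), where 7.05% of all genes did so. Of 7 adipocyte markers 7 had a negative difference there (median -0.36), with Fabp4 called (-0.94, adjusted p = 0.00305, limma). The part of these markers in the control values was not tested. The control groups belong to different crosses, and cross and batch cannot be told apart there.

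**Figure D3:**
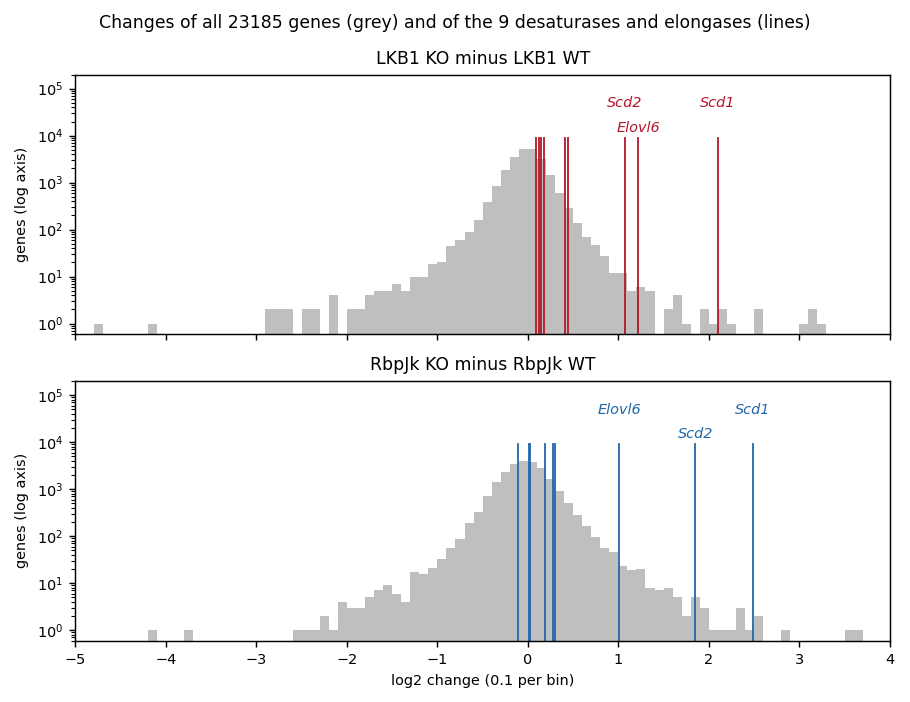
Number of genes (vertical log axis) by their log2 difference (horizontal axis) in the LKB1 comparison above and the RbpJk comparison below, with all 23185 genes in grey and the 9 desaturases and elongases as lines, those called by name. Scd1 lies in the far right tail of both, with 9 genes beyond it for LKB1 and 5 for RbpJk, and the uncalled members stand over the bulk of the genes or its right shoulder.

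The remaining desaturases and elongases of the mouse were taken as a list of 8 (Scd3, Scd4, Fads3, Fads6, Degs1, Degs2, Elovl4 and Elovl7). Elovl7, an elongase of saturated very long chains, was the only one called. Elovl7 was called in both comparisons, beside 0.418% of all genes called as higher in LKB1 KO and 1.12% in RbpJk KO. It was 5.93, 5.83 and 5.87 in LKB1 KO livers and 4.27, 4.49 and 5.00 in LKB1 WT livers (1.29 ± 0.19, 2.45-fold, adjusted p = 0.0031, limma). In RbpJk KO livers it was 5.71, 5.67 and 5.89, and in RbpJk WT livers 5.09, 5.11 and 4.56 (0.83 ± 0.19, 1.78-fold, adjusted p = 0.0423, limma). Every knockout array was above every control array, as for 7.77% of all genes for LKB1 and 8.25% for RbpJk. The LKB1 call was lost on arrays of 1 Xist class alone (1.29, adjusted p = 0.136), and the RbpJk call in 16 of 23 alternatives (0.65 to 0.93, adjusted p up to 0.425), among them the fits without any 1 RbpJk KO array, without RbpJk WT array 2 or 3, and without LKB1 KO array 1, 2 or 3 or LKB1 WT array 2. The list's median difference was 0.13 for LKB1 and 0.15 for RbpJk.

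Promoter sequences are shown for the 2 elongases called in both knockouts, Elovl6 and Elovl7, and for Elovl5, an elongase called in neither, as the 250 bases before the annotated start (RefSeq, GRCm38.p6, + strand for all 3). RefSeq promoters were found for 5 of the 9 genes. Capitals mark exact matches, on either strand, to the GC box (GGGCGG), the CCAAT box (CCAAT), the E-box (CACGTG) or the sterol regulatory element (TCACNCCAC), which stand in 32.7%, 33.8%, 6.02% and 1.05% of 32851 promoter windows of this length; no 2 matches shown overlap.
Elovl6, chr3:129532136-129532385: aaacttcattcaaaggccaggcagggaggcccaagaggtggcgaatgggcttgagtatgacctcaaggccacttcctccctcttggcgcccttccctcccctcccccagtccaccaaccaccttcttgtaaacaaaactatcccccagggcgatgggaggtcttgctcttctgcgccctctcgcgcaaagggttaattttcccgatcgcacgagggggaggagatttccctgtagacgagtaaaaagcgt
Elovl7, chr13:108214154-108214403: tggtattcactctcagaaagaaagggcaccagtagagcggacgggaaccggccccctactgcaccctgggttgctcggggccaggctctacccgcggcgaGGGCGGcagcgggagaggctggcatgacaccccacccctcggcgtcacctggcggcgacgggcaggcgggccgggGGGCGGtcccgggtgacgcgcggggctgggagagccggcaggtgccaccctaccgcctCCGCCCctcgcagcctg
Elovl5, chr9:77917115-77917364: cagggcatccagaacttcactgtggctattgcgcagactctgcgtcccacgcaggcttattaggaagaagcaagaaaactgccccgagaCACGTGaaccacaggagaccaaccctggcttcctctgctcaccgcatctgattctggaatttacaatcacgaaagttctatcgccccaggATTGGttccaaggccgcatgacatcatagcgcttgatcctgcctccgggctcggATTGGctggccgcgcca
The Elovl6 window held none of the 4 motifs, that of Elovl7 held 3 GC boxes, and that of Elovl5 held 2 CCAAT boxes and 1 E-box. G and C made up 56.4%, 73.6% and 55.6% of these windows, beside a median of 52.4% over all of them. Windows not shown were those of Elovl1, Elovl2 and Fads2, called in neither knockout. They held 5 and 2 GC boxes for Elovl1, 0 and 5 for Elovl2 and 1 for Fads2, with 58.0% to 87.2% G and C. A match is a description of the letters only.

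Likeness of values over the 12 arrays was taken as the root mean square difference after centring each gene on its own mean. The 9 members were left out of the ranking. By it the genes nearest to Scd2 were Cidec (0.21), a lipid droplet protein, Nsdhl (0.27), an enzyme of cholesterol synthesis, Sgk2 (0.30) and Tmem82 (0.35). Those nearest to Elovl6 were Tmem82, Prr15l, Elovl7 and Sgk2, all at 0.27. Those nearest to Scd1 were farther off, with Gstm3 at 0.47, Cidec at 0.49, Tnfrsf12a at 0.54 and Aldh1a7 at 0.55. Elovl7 was the only elongase among them, those of the 9 having been left out.

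Chain elongation needs further enzyme steps after the elongase, and desaturation needs electrons from cytochrome b5. Of the 6 elongation partners (Hsd17b12, Tecr and 4 Hacd genes) none was called in either comparison, with medians of -0.09 for LKB1 and 0.20 for RbpJk, and 0 and 1 of them had an unadjusted p under 0.05. Over all genes 8.05% had such a p for LKB1 and 14.5% for RbpJk. The smallest p was that of Hsd17b12, a ketoacyl-CoA reductase, which was 7.99, 8.41 and 8.04 in RbpJk KO livers and 7.86, 7.75 and 7.80 in RbpJk WT livers (0.34, adjusted p = 0.197, limma). Of the 6 genes of electron supply, none was called in RbpJk KO livers, where 2 had an unadjusted p under 0.05 (14.5% of all genes). In LKB1 KO livers 1 of the 6 fell, beside 0.962% of all genes called in either direction. That was Cyb5a, cytochrome b5 itself, at 10.22, 10.07 and 9.72 in LKB1 KO livers and 10.44, 10.63 and 10.56 in LKB1 WT livers (-0.54 ± 0.11, adjusted p = 0.0385, limma). The call was lost in 12 of 23 alternatives (adjusted p up to 0.434), among them the fits without LKB1 KO array 2 or 3, any 1 LKB1 WT array, RbpJk KO array 3 or RbpJk WT array 1. Without LKB1 KO array 3 its difference was -0.40, and with Xist class as a covariate it was -0.70, with a call.

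The 10 genes listed under de novo fatty acid synthesis had median differences of 0.28 for LKB1 and 0.45 for RbpJk. The synthesis enzymes among them supply the substrate of Elovl6 and Scd1. Other proteins are on the list too, among them Pnpla3, which is not an enzyme of this synthesis. In LKB1 KO livers 1 of 10 rose, against 0.418% of all genes called as higher. This was Pnpla3, a lipid droplet protein, at 6.42, 6.07 and 6.38 in LKB1 KO livers and 5.65, 5.29 and 5.48 in LKB1 WT livers (0.82 ± 0.17, adjusted p = 0.0332, limma). It lost its call in 9 of 23 alternatives (0.73 to 0.93, adjusted p up to 0.318), including those without LKB1 KO array 1 or 3 or any 1 LKB1 WT array. Fasn, fatty acid synthase, did not pass there (0.40 ± 0.10, adjusted p = 0.0958, limma), although its LKB1 KO arrays (7.68, 7.53 and 7.75) lay above its LKB1 WT arrays (7.33, 7.19 and 7.24).

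In RbpJk KO livers 3 of these 10 rose, against 1.12% of all genes called as higher. Pnpla3 was not among them, though its RbpJk KO arrays (5.61 to 6.21) lay wholly above its RbpJk WT arrays (5.00 to 5.27). Its difference of 0.71 passed in 4 of 23 alternatives. Fasn was 8.21, 8.18 and 8.13 in RbpJk KO livers and 7.30, 7.28 and 7.47 in RbpJk WT livers (0.82 ± 0.10, adjusted p = 0.000598, limma). Acss2, which makes acetyl-CoA from acetate, was 6.93, 6.73 and 6.73 in RbpJk KO livers and 6.00, 6.07 and 5.64 in RbpJk WT livers (0.89 ± 0.15, adjusted p = 0.00666, limma). Acaca, acetyl-CoA carboxylase, was 7.41, 7.84 and 7.59 in RbpJk KO livers and 6.80, 6.96 and 7.07 in RbpJk WT livers (0.67 ± 0.13, adjusted p = 0.0165, limma). None of the 3 overlapped between its groups, and the RbpJk KO arrays lay wholly above for 8.25% of all genes. Fasn kept its call in 22 of 23 alternatives. Acss2 lost it among others with Xist class as a covariate (0.83, adjusted p = 0.0706, limma). Acaca lost it in 7 of 23 alternatives, among them the fit with Xist class as a covariate (0.73, adjusted p = 0.0643, limma). It was also lost without RbpJk KO array 2 (0.56, 0.0605), RbpJk KO array 3 (0.69, 0.0579) or RbpJk WT array 1 (0.60, 0.0508). On arrays of 1 Xist class, with 1 RbpJk WT array, the difference was 0.73 for Acss2 and 0.66 for Acaca. For Fasn, Acss2 and Acaca the LKB1 effect was smaller than the RbpJk effect by 0.42, 0.62 and 0.54, and none of these differences passed after adjustment (adjusted p = 0.345, 0.360 and 0.355, limma).

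**Figure D4:**
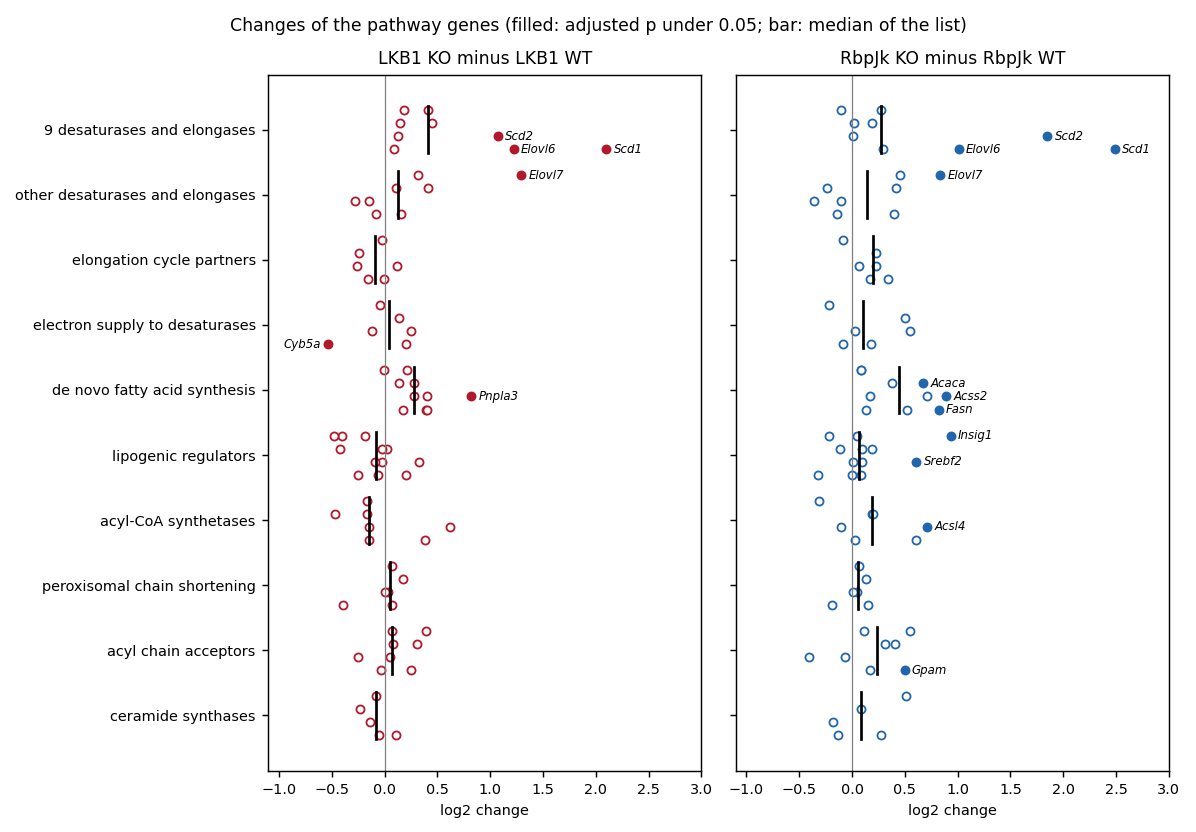
Log2 difference (horizontal axis) of each gene in the 9 desaturases and elongases and in 9 lists of related genes (vertical axis), for LKB1 KO minus LKB1 WT on the left and RbpJk KO minus RbpJk WT on the right; filled points passed an adjusted p under 0.05 and are named, and the black bar is the list's median. The highest called value is that of Scd1 in both panels, 2.10 for LKB1 and 2.49 for RbpJk. The list of de novo synthesis has 1 filled point on the left, the lipid droplet protein gene Pnpla3, and 3 on the right.

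Lipogenic regulators, 12 of 13 listed genes measured, held no call in the LKB1 comparison (median -0.08). There 3 of 12 had an unadjusted p under 0.05, beside 8.05% of all genes. In the RbpJk comparison 2 rose (median 0.07), beside 1.12% of all genes called as higher. Srebf2, the sterol-responsive Srebp gene, was 8.42, 8.17 and 8.37 in RbpJk KO livers and 7.67, 7.65 and 7.82 in RbpJk WT livers (0.61 ± 0.10, adjusted p = 0.00778, limma). Insig1, which retains Srebp in the endoplasmic reticulum and is itself an Srebp target, was 10.09, 9.94 and 10.24 in RbpJk KO livers and 8.92, 8.85 and 9.70 in RbpJk WT livers (0.93 ± 0.21, adjusted p = 0.0436, limma). Both were without overlap between the groups, with RbpJk KO wholly above, as it was for 8.25% of all genes. Srebf1, the Srebp gene known for lipogenesis, differed by 0.20 for LKB1 and 0.08 for RbpJk (adjusted p = 0.869 and 0.830, limma). Srebf2 lost its call when the 6 RbpJk arrays were fitted alone (adjusted p = 0.0617) and on arrays of 1 Xist class (0.0758). Insig1 lost its call in 13 of 23 alternatives (0.78 to 1.26, adjusted p up to 0.506), among them the fits without any 1 RbpJk KO array, RbpJk WT array 1 or 2, LKB1 KO array 1 or LKB1 WT array 2 or 3. In LKB1 KO livers Insig1 was 8.40, 8.04 and 8.75, against 8.56, 8.85 and 9.0 in LKB1 WT livers (-0.41, adjusted p = 0.725, limma), and the difference between the effects was -1.34 ± 0.30 (unadjusted p = 0.000584, adjusted p = 0.116, limma).

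The lists that use the finished chains held few calls. Over all genes 0.418% were called as higher for LKB1 and 1.12% for RbpJk, and 8.05% had an unadjusted p under 0.05 for LKB1. Of 7 measured acyl-CoA synthetases (8 listed), none was called for LKB1 (median -0.15, 2 of 7 with an unadjusted p under 0.05), and for RbpJk (median 0.19) Acsl4, which prefers polyunsaturated chains, rose to 8.41, 8.14 and 7.93 in RbpJk KO livers, against 7.60, 7.08 and 7.66 in RbpJk WT livers (0.71 ± 0.16, adjusted p = 0.0393, limma). Of 8 measured genes of acyl chain acceptors (9 listed), none was called for LKB1 (median 0.07, 2 of 8 with an unadjusted p under 0.05), and for RbpJk (median 0.24) Gpam, the first acyltransferase of glycerolipid synthesis, rose to 7.98, 8.20 and 8.37 in RbpJk KO livers, against 7.65, 7.69 and 7.72 in RbpJk WT livers (0.50 ± 0.11, adjusted p = 0.046, limma). Acsl4 was not called for LKB1, where 5 of the 7 synthetases had a negative difference. Its LKB1 KO arrays (7.77 to 8.07) still lay wholly above its LKB1 WT arrays (7.21 to 7.43), as for 7.77% of all genes. That difference of 0.62 passed in 3 of 23 alternatives. Both RbpJk calls were close to the threshold. That of Acsl4 was lost in 13 of 23 alternatives (0.53 to 1.08, adjusted p up to 0.529), among them the fits without RbpJk KO array 1 or 2, RbpJk WT array 2, LKB1 KO array 2 or 3 or any 1 LKB1 WT array. That of Gpam was lost in 17 (0.40 to 0.60, adjusted p up to 0.430), among them the fits without any 1 array other than RbpJk KO array 1 and LKB1 KO array 3.

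Neither of the last lists held a call. At an unadjusted p under 0.05 the first had 1 of 6 genes for LKB1 and 0 for RbpJk, and the second 0 and 1 of 5, beside 8.05% and 14.5% of all genes. Of 6 measured genes of peroxisomal chain shortening (8 listed; medians 0.05 for LKB1 and 0.06 for RbpJk) the smallest p was that of Abcd2, a peroxisomal importer of fatty acyl-CoA, at 8.68, 9.12 and 8.89 in LKB1 KO livers and 9.18, 9.55 and 9.13 in LKB1 WT livers (-0.39, adjusted p = 0.403, limma). Of 5 measured ceramide synthases (6 listed; medians -0.08 and 0.09) it was that of Cers6, at 8.64, 8.67 and 8.57 in RbpJk KO livers and 8.29, 8.41 and 8.35 in RbpJk WT livers (0.28, adjusted p = 0.282, limma). The listed genes with no named probe set were not analysed here.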

How the data were processed

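Total RNA of 12 livers was labelled by the Affymetrix whole-transcript protocol, per the labels. The methods describe Affymetrix Mouse Gene ST arrays read with Expression Console and tested in BRB-ArrayTools, and the submitters' processing notes name Partek. The values deposited by the authors were log2 expression, 1 per probe set, between 1.18 and 12.97; how background was corrected and arrays were normalized is not given in the sources used here, and no count or depth underlies them. Array medians were 4.84 to 5.01. Of 25206 probe sets, 23185 had 1 gene symbol, all matched to RefSeq (GRCm38.p6), and were tested.

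Values were used as deposited. A model of 4 group means was fitted to all 12 arrays with limma 3.58.1 in R 4.3.3 (eBayes with an intensity trend, 8 residual and 5.88 prior degrees of freedom), with Benjamini-Hochberg adjustment over all 23185 genes and calls at an adjusted p under 0.05; the fit was tested on simulated data. No 2 arrays were identical. Named genes were the 9 members, up to 3 called genes per list and knockout by smallest p, otherwise the 1 gene with the smallest p of the list. To these came the 4 genes outside the 9 most alike each member called in both knockouts. The members and lists were chosen with earlier results of these data known. Motifs were matched exactly with Python 3.11.15. Alternatives changed the arrays, variance model, weights, filter, scaling, rows, test and Xist class, or left out each array.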

Additional observations from a re-analysis of the deposited data

How the results depend on the processing

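No paired analysis was possible because the labels give each array a code of its own and no replicate number shared between groups. With array weights 5 of the 9 genes were called for LKB1, Fads1 and Fads2 being added; with an unpaired Student's t-test per gene, which the methods name in general and not for the arrays, after Benjamini-Hochberg adjustment 0 of 9 were called in either knockout, as were 0 of 23185 genes, while 5 of 9 for LKB1 and 3 of 9 for RbpJk had an unadjusted p under 0.05 (2253 and 2071 of all genes). Leaving out 1 array gave 2 to 4 called genes for LKB1 and 2 to 3 for RbpJk. Scd1 and Scd2 kept their calls in both knockouts in 22 of 23 alternatives each.

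Differences near 0 changed sign. Gpam for LKB1 was 0.056 with Xist class as a covariate, 0.15 on arrays of 1 Xist class and -0.12 to 0.021 with 1 array left out. For RbpJk, Elovl2 was -0.041 after quantile normalization and -0.046 to 0.092 with 1 array left out, and Elovl3 was -0.013 with the covariate, -0.028 on arrays of 1 class and -0.11 to 0.093 with 1 array left out. The Elovl6 difference between the effects was -0.051 to 0.41 with 1 array left out, below 0 only without RbpJk WT array 1. For LKB1 WT minus RbpJk WT, Scd2 was 0.032 and Fads2 0.031 after median centring, and with 1 array left out Scd2 was -0.12 to 0.046, Fads1 -0.037 to 0.15, Fads2 -0.078 to 0.038 and Elovl6 -0.44 to 0.021. None of these passed the test under any of the alternatives, and the cause was not tested.

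Over all genes, the 223 LKB1 calls became 131 without the intensity trend, 512 with array weights, 132 with the Xist covariate, 56 on arrays of 1 Xist class and 106 to 235 with 1 array left out. The 390 RbpJk calls became 157 on the arm's own arrays, 259 with array weights, 187 with the covariate, 170 on arrays of 1 class and 194 to 465 with 1 array left out. Median centring gave 590 RbpJk calls, of which 79.0% were higher in RbpJk KO, against 66.4% without it. The 42 calls on the difference between effects became 15 to 57, and the 162 between the control groups 70 to 272, with 1 array left out. The number of arrays, and for Elovl3, Scd3 and Scd4 the low signal, limit the precision.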

Other observations

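Serpina1e, listed among the hepatocyte markers, was uneven within the LKB1 groups, at 11.32, 6.85 and 7.33 on the LKB1 KO arrays and 11.75, 11.73 and 4.63 on the LKB1 WT arrays. It lay between 11.77 and 12.11 on the 6 RbpJk arrays. None of the 9 desaturases and elongases was split in this way. Between the controls, 2 of the 68 measured genes of the pathway lists were called, against 0.699% of all genes. Me1, the malic enzyme that supplies NADPH to fatty acid synthesis, was 4.80, 4.45 and 4.41 in LKB1 WT livers and 5.51, 5.85 and 6.00 in RbpJk WT livers (-1.23, adjusted p = 0.0224, limma). Slc27a5, a bile acid and very long chain acyl-CoA synthetase, was 9.37, 9.58 and 9.49 in LKB1 WT livers and 8.58, 8.87 and 9.04 in RbpJk WT livers (0.64, adjusted p = 0.0224, limma).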
